A study of Homo sapiens with 18 samples.

Results

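The BCL2 family decides whether the mitochondrial outer membrane stays intact, and 10 of its genes were followed here across 2 oestrogen receptor-positive (ER+) breast cancer cell lines treated with a CDK4/6 inhibitor. The members were taken by name from a table of 60656 genes: the anti-apoptotic genes BCL2, BCL2L1 and MCL1, the effectors BAX and BAK1, and the BH3-only genes BBC3, PMAIP1, BCL2L11, BIK and BID. All 10 passed the filter on low counts in both lines, where 11053 genes were tested in CAMA-1, 11017 in ZR-75-1 and 11987 in the fit over both lines.

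Anti-apoptotic members hold the effectors in check at the mitochondrion. BH3-only proteins carry damage and stress signals, bind the anti-apoptotic members or the effectors, and so allow BAX and BAK1 to form pores through which cytochrome c leaves. In ER+ breast tissue BCL2 is known as an oestrogen-responsive gene, and antagonists of BCL2, BCL-xL and MCL1 have been studied as anticancer agents. Transcript levels say nothing of protein stability, which is a large part of how MCL1, BBC3 and BCL2L11 products are controlled.

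CAMA-1 and ZR-75-1 are established ER+ lines, and the libraries are of cells whose genotype is given as wild-type. Cells received abemaciclib at 500 nM, palbociclib at 500 nM, or DMSO as the solvent control, for 5 days. Each of the 6 combinations of line and treatment had 3 libraries, 18 in all, and the methods of the study describe them as independent biological replicates. Each group stands for 1 line at a single dose and time. The 3′-end sequencing kit counts reads near the end of each transcript, so splice forms are not separated. These include the pro- and anti-apoptotic forms of BCL2L1 and MCL1 and the forms of BCL2L11.

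Library totals ran from 2308442 to 4146549 counts, and 3 counts stood for a normalised count (CPM) of 0.723 to 1.30. The 7 luminal epithelial markers lay above that floor in all 6 groups, with a summed level of 4648 to 6679 CPM. Of 10 markers of basal, fibroblast, immune and endothelial cells, 1 or 2 lay above the floor in a group and 3 to 8 were at 0 in all its libraries, and their summed level was 12.9 to 34.7 CPM, most of it COL1A1 reads. Mitochondrially encoded transcripts took 15.7% ± 0.87 (SD, n = 3) of the counts in CAMA-1 with DMSO, 24.8% ± 1.37 with abemaciclib and 23.6% ± 1.15 with palbociclib, whereas ZR-75-1 stayed between 18.98% and 20.2% in group means. Levels below are normalised counts in CPM on a single scale for all 18 libraries. Fold changes are log2 values, given ± their standard error (SE), from the edgeR quasi-likelihood test. The p-values were adjusted by the Benjamini-Hochberg method across every gene of the fit, and a value under 0.05 counted as a call.

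The promoters of 3 members are shown first, of which BBC3 was called in opposite directions in the lines, and BCL2L11 and BAX were called in 1 line. RefSeq windows were found for 8 of the 10 members. MCL1 and BIK had none. In each window, the 250 bases before the start site were searched on both strands. The letters sought were GGGCGG for the GC box, CCAAT for the box of that name, and CACGTG for the E-box. They were GTAAACA for forkhead factors, TGACGT for the CRE half-site and AGGTCA for the oestrogen half-site. For E2F, 3 forms were used, which were TTTCCCGC, TTTGGCGC and TTTCGCGC. Capitals mark these motifs, on either strand. Printing stops before the first base of the window annotated as exon or, for BBC3, as part of the RefSeq gene. The BCL2L11 window lies inside the annotated span of its gene. The sequences are from GRCh38.p14, at chr2:111120664-111120913 on the plus strand for BCL2L11, chr19:47232861-47232917 on the minus strand for BBC3, and chr19:48954625-48954814 on the plus strand for BAX.
BCL2L11: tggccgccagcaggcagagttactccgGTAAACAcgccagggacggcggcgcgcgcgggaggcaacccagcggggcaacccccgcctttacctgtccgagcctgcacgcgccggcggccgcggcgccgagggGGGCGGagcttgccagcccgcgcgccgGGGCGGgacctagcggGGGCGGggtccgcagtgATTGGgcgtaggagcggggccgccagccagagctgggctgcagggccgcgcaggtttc
BBC3: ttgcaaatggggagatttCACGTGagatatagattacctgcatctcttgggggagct
BAX: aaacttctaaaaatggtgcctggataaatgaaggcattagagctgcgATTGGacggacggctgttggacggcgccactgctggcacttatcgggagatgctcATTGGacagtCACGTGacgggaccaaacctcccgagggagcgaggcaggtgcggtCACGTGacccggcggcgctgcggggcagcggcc

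BCL2L11 was the only one of the 8 with the forkhead letters, which 2.98% of all 35116 windows hold. An E-box was found at BAX, BBC3 and BID, against 6.34% of all windows, and the printed stretches of BBC3 and BAX hold it. A CCAAT box occurred at BAX, BAK1, BBC3 and BCL2L11, against 32.0% of windows, and a GC box at 5 members, against 42.6%. PMAIP1 alone held the CRE half-site, present in 7.10% of windows. Neither the oestrogen half-site nor an E2F form was found in any of the 8, against 12.1% and 2.32% of windows. None of the matches in the 3 printed windows overlapped another. A member was counted if any of its windows held the letters, while the percentages are per window. BID had several windows, and its E-box lay in those numbered 2 and 5. These matches describe the letters of the windows and no binding was measured.

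The lines differed in their starting levels of BCL2, PMAIP1, BIK and BAK1. With DMSO alone, ZR-75-1 was higher in 2 members and lower in 4, while 61.3% of all genes tested differed between the lines. BCL2 stood at 5.13 ± 1.92 CPM (SD, n = 3) in CAMA-1 and 90.4 ± 5.67 CPM in ZR-75-1, an 18.3-fold difference (log2 4.19, SE 0.17, adjusted p = 2.81e-31). PMAIP1, which encodes the BH3-only protein NOXA that binds MCL1, stood at 2.77 ± 0.42 CPM in CAMA-1 and 25.0 ± 6.42 CPM in ZR-75-1, an 8.88-fold difference (log2 3.15, SE 0.30, adjusted p = 1.66e-14). Neither gene had overlapping DMSO groups.

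BIK and BAK1 went the other way. BIK, a BH3-only protein of the endoplasmic reticulum, stood at 10.9 ± 2.71 CPM in CAMA-1 and 2.59 ± 0.46 CPM in ZR-75-1 (log2 -2.04, SE 0.36, adjusted p = 1.61e-06). BAK1 stood at 13.3 ± 2.16 and 4.35 ± 0.98 CPM (log2 -1.60, SE 0.31, adjusted p = 1.06e-05). The libraries of the lines did not overlap for either gene. BID, which is cleaved by caspase-8 and links death receptors to mitochondria, was lower in ZR-75-1 by a smaller margin (log2 -0.55, SE 0.14, adjusted p = 6.13e-04), as was BBC3 (log2 -0.47, SE 0.13, adjusted p = 0.0015), whose DMSO libraries overlapped between lines. No call was made at the start for BCL2L1 (log2 0.19, 95% interval -0.062 to 0.45), MCL1 (-0.11, -0.27 to 0.050), BCL2L11 (-0.17, -0.64 to 0.30) or BAX (-0.31 with an SE of 0.35). For BCL2L1 and MCL1 this rested on the third DMSO library of CAMA-1: without it, the differences were 0.34 (adjusted p = 0.0329) and -0.21 (adjusted p = 0.0357).

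**Figure D1:**
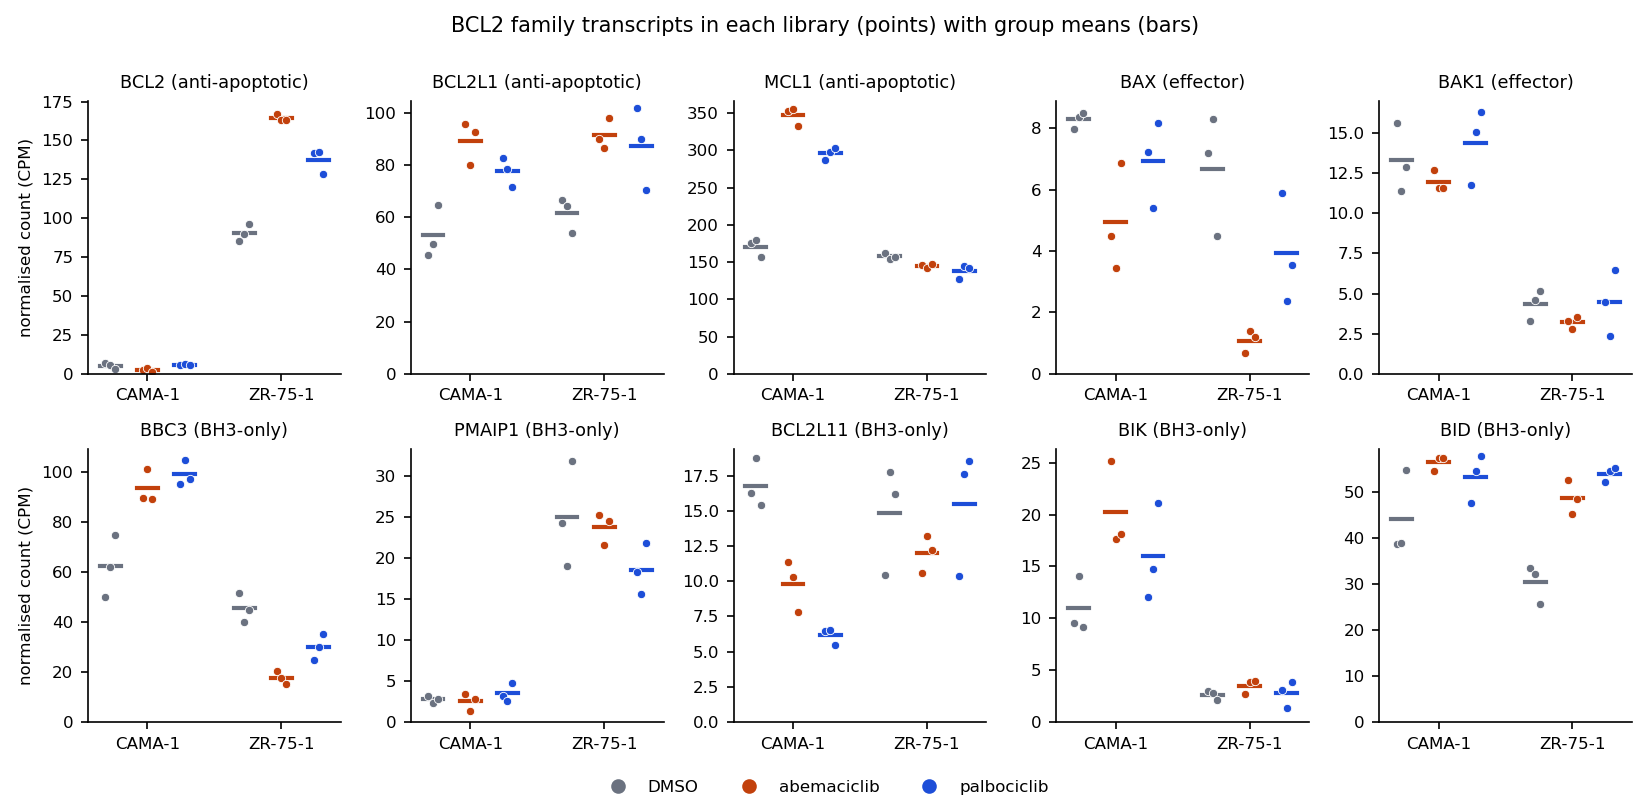
Normalised counts (CPM, vertical axes from 0) of the 10 BCL2 family genes in each of the 18 libraries (points), with the mean of each group of 3 (horizontal bars), CAMA-1 on the left and ZR-75-1 on the right of each panel. BCL2 lay under 7 CPM in every CAMA-1 library and between 85.1 and 167 CPM in ZR-75-1, and MCL1 rose above its DMSO level with both inhibitors in CAMA-1 alone.

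Whether a CDK4/6 inhibitor changes the family was asked within each line. In CAMA-1, abemaciclib raised 4 members (BCL2L1, MCL1, BBC3 and BIK) and lowered 2 (BCL2 and BCL2L11), and palbociclib raised 3 (BCL2L1, MCL1 and BBC3) and lowered 1 (BCL2L11). Over all genes tested, 40.3% were called with abemaciclib (20.3% higher and 20.1% lower) and 37.1% with palbociclib (18.4% higher and 18.7% lower). In ZR-75-1, both inhibitors raised 3 members (BCL2, BCL2L1 and BID), abemaciclib lowered 2 (BAX and BBC3) and palbociclib lowered 1 (BBC3). There, 36.2% of all genes were called with abemaciclib (17.9% higher and 18.3% lower) and 27.9% with palbociclib (14.5% higher and 13.4% lower). The 4 to 6 members called are thus read against 27.9% to 40.3% of all genes, and nothing particular to the family is drawn from these counts. The median log2 fold change of the 10 members was 0.10, 0.25, -0.10 and 0.048 in the same order of comparisons, where the median of all genes tested was 0.010, 0.0011, -0.0037 and -0.0080. The comparisons with the 2 inhibitors in a line share its DMSO libraries. The rise of the mitochondrial share in treated CAMA-1 moved with every CAMA-1 call below. With mitochondrially encoded genes left out of the counts, 6 and 4 members were called in CAMA-1, the same numbers as with them. Leaving them out bears on the scaling of the counts alone, and any further part of the mitochondrial share was not tested.

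BCL2 (ENSG00000171791.13, chr18:63123346-63320128, minus strand), the founding anti-apoptotic gene of the family, rose with both inhibitors in ZR-75-1 and did not rise with either in CAMA-1. In ZR-75-1 its normalised count was 85.1, 89.6 and 96.4 CPM in the DMSO libraries, 167, 163 and 163 CPM with abemaciclib and 142, 143 and 128 CPM with palbociclib. The 3 groups were separate, with abemaciclib the highest and DMSO the lowest. The change was 0.86 ± 0.09 (adjusted p = 2.05e-11) with abemaciclib, which is 1.81-fold, and 0.60 ± 0.09 (adjusted p = 4.84e-07) with palbociclib, which is 1.52-fold. In CAMA-1 the gene rested on few reads, with 21, 17 and 13 counts in the DMSO libraries, 8, 8 and 4 counts with abemaciclib and 24, 22 and 16 counts with palbociclib. After scaling, the lowest DMSO library, at 2.99 CPM, lay below the highest abemaciclib library, at 3.43 CPM. The fall with abemaciclib was called at -1.22 ± 0.47 (adjusted p = 0.0334), but DESeq2 gave an adjusted p of 0.0850 for the same contrast. The call was also lost without DMSO library 1 (-0.98, adjusted p = 0.158), DMSO library 2 (-1.13, 0.0918), abemaciclib library 1 (-1.19, 0.0897) or abemaciclib library 3 (-0.93, 0.157). With palbociclib the difference in CAMA-1 was 0.19 ± 0.39 (adjusted p = 0.744).

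BCL2L1 (ENSG00000171552.13, chr20:31664452-31723989, minus strand), which encodes BCL-xL, was the only member higher with both inhibitors in both lines. In CAMA-1 it stood at 45.7, 49.6 and 64.8 CPM with DMSO, at 95.6, 79.8 and 92.5 CPM with abemaciclib and at 82.8, 78.5 and 71.4 CPM with palbociclib. All treated libraries lay above all DMSO libraries, of which the third was the highest. In ZR-75-1 it stood at 66.5, 64.4 and 53.9 CPM with DMSO, at 89.9, 86.5 and 97.9 CPM with abemaciclib and at 102, 89.9 and 70.4 CPM with palbociclib. Again no treated library reached down into the DMSO range. With abemaciclib it rose by 0.70 ± 0.12 in CAMA-1 (adjusted p = 3.67e-06) and by 0.56 ± 0.12 in ZR-75-1 (adjusted p = 1.27e-04). With palbociclib it rose by 0.50 ± 0.12 in each (adjusted p = 6.43e-04 and 7.40e-04). Without mitochondrially encoded genes the CAMA-1 values were 0.71 and 0.50. The gene's span overlaps BCL2L1-AS1 and ABALON on the opposite strand, and whether the counting used strand was not stated in the sources used here.

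MCL1 (ENSG00000143384.13, chr1:150560895-150579738, minus strand), whose product is short-lived and holds back BAK1 and several BH3-only proteins, rose with both inhibitors in CAMA-1 and with neither in ZR-75-1. Its level in CAMA-1 was 175, 180 and 157 CPM with DMSO, 353, 355 and 333 CPM with abemaciclib and 287, 298 and 303 CPM with palbociclib. The treated groups were far above the DMSO group and did not overlap each other. These rises, of 1.00 ± 0.07 (adjusted p = 1.07e-14), or 1.99-fold, and 0.77 ± 0.07 (adjusted p = 2.64e-11), or 1.70-fold, ranked 182 and 294 by p among the 11053 genes tested. They were 1.00 and 0.77 without mitochondrially encoded genes as well. In ZR-75-1, MCL1 stood at 162, 155 and 157 CPM with DMSO, at 146, 142 and 147 CPM with abemaciclib and at 128, 145 and 142 CPM with palbociclib. All 6 treated libraries lay below the 3 DMSO libraries there, yet the differences of -0.13 ± 0.09 (adjusted p = 0.253) and -0.20 ± 0.09 (adjusted p = 0.0794) did not pass the threshold. Reads within the span of MCL1 can also belong to ADAMTSL4-AS1, which is annotated on the same strand.

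The effectors BAX and BAK1 were counted at few reads in both lines. BAX (ENSG00000087088.20, chr19:48954815-48961798, plus strand) fell with abemaciclib in ZR-75-1, from 22, 27 and 13 counts in the DMSO libraries to 2, 4 and 3 counts, and had 21, 7 and 12 counts with palbociclib. In CPM these were 7.20, 8.28 and 4.49 with DMSO, 0.66, 1.39 and 1.18 with abemaciclib and 5.89, 2.37 and 3.53 with palbociclib. The abemaciclib libraries were at or near the floor of 3 counts and apart from all others, while palbociclib overlapped DMSO. The fall with abemaciclib was -2.61 ± 0.55 (95% interval -3.71 to -1.51, adjusted p = 1.10e-04), and it stayed called with any single library left out, between -2.83 and -2.34. With palbociclib the value was -0.74 ± 0.43 (adjusted p = 0.199). In CAMA-1, BAX counts were 25, 25 and 37 with DMSO, 17, 8 and 22 with abemaciclib and 30, 19 and 24 with palbociclib. After scaling, the abemaciclib libraries lay below those with DMSO, but the differences of -0.75 ± 0.34 (adjusted p = 0.0694) and -0.30 ± 0.31 (adjusted p = 0.498) were not called. Without abemaciclib library 3, the value with abemaciclib was -1.06 and passed (adjusted p = 0.0314).

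BAK1 passed the test with neither inhibitor in either line. It ranged from 11.4 to 16.3 CPM over the CAMA-1 libraries and from 2.37 to 6.48 CPM over those of ZR-75-1, with overlapping treated and DMSO groups throughout. The differences from DMSO were -0.18 (95% interval -0.65 to 0.30) and 0.071 (-0.38 to 0.53) in CAMA-1, and -0.44 (-1.39 to 0.51) and 0.046 (-0.83 to 0.92) in ZR-75-1. With 7 to 22 counts a library in ZR-75-1, the interval with abemaciclib there still held a 2-fold fall. The span of BAK1 on chromosome 6 overlaps GGNBP1 on the opposite strand.

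BBC3 (ENSG00000105327.18, chr19:47220822-47232766, minus strand) encodes PUMA, a BH3-only protein induced by p53 and by several stress pathways, and its transcript moved in opposite directions in the lines. In CAMA-1 it stood at 50.1, 62.0 and 74.9 CPM with DMSO, at 89.7, 101 and 89.0 CPM with abemaciclib and at 95.1, 105 and 97.3 CPM with palbociclib. Every treated library was higher than every DMSO library, and the third DMSO library was again the highest of its group. ZR-75-1 had 51.7, 39.9 and 44.6 CPM with DMSO, 20.2, 17.7 and 15.0 CPM with abemaciclib and 24.7, 29.8 and 35.3 CPM with palbociclib. Here the treated libraries lay below all DMSO libraries, in 3 separate groups with abemaciclib the lowest. BBC3 rose in CAMA-1 by 0.53 ± 0.11 (adjusted p = 1.87e-04) and 0.62 ± 0.11 (adjusted p = 1.48e-05), and these values were 0.53 and 0.62 without mitochondrially encoded genes. It fell in ZR-75-1, with log2 fold changes of -1.36 ± 0.18 (adjusted p = 4.93e-09) and -0.60 ± 0.16 (adjusted p = 0.0025). The E-box shown above begins 232 bases before the start site of the RefSeq window searched for BBC3. That start site lies inside the gene's annotated span, as does the CCAAT box found 87 bases before it. The microRNA genes MIR3190 and MIR3191 overlap the span of BBC3.

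BCL2L11 (ENSG00000153094.24, chr2:111119378-111168444, plus strand) encodes BIM, which binds all anti-apoptotic members and is a known target of forkhead factors. It was lowered in CAMA-1, from 16.3, 18.8 and 15.4 CPM with DMSO to 11.4, 10.3 and 7.81 CPM with abemaciclib and 6.50, 6.54 and 5.44 CPM with palbociclib. No group overlapped another, and palbociclib gave the lowest values. The change was -0.79 ± 0.24 (adjusted p = 0.0079) with abemaciclib and -1.46 ± 0.26 (adjusted p = 1.10e-05) with palbociclib. The call with abemaciclib was lost without the third abemaciclib library, at -0.65 (adjusted p = 0.0579). In ZR-75-1 the libraries read 10.5, 17.8 and 16.2 CPM with DMSO, 10.6, 13.2 and 12.2 CPM with abemaciclib and 10.4, 17.6 and 18.6 CPM with palbociclib. These groups overlapped, with differences of -0.31 ± 0.26 (adjusted p = 0.368) and 0.050 ± 0.24 (adjusted p = 0.909). Its locus overlaps MIR4435-2HG, annotated on the opposite strand.

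BIK rose with abemaciclib in CAMA-1 and BID rose with both inhibitors in ZR-75-1. For BIK, CAMA-1 had 9.58, 14.1 and 9.19 CPM with DMSO, 25.1, 17.6 and 18.1 CPM with abemaciclib and 12.0, 14.8 and 21.1 CPM with palbociclib. Only the abemaciclib group was clear of DMSO. The rise was 0.89 ± 0.24 (adjusted p = 0.0021) with abemaciclib, whereas palbociclib gave 0.51 ± 0.24 (adjusted p = 0.0967), which passed without DMSO library 2 (0.71, adjusted p = 0.0367) or palbociclib library 1 (0.69, adjusted p = 0.0387). In ZR-75-1, where BIK had 4 to 13 counts a library, the differences were 0.40 ± 0.52 and 0.10 ± 0.52, and neither was called.

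BID stood in ZR-75-1 at 33.4, 32.2 and 25.6 CPM with DMSO, at 52.8, 45.2 and 48.5 CPM with abemaciclib and at 52.2, 54.6 and 55.4 CPM with palbociclib. The treated libraries all lay above DMSO, by 0.67 ± 0.14 (adjusted p = 1.25e-04) and 0.82 ± 0.14 (adjusted p = 4.27e-06). CAMA-1 had 38.6, 38.8 and 54.9 CPM with DMSO, 54.5, 57.5 and 57.5 CPM with abemaciclib and 47.7, 54.6 and 57.8 CPM with palbociclib. The third DMSO library overlapped the treated ones, and the differences of 0.30 ± 0.13 (adjusted p = 0.0650) and 0.22 ± 0.13 (adjusted p = 0.204) were not called. In the joint fit of both lines the value with abemaciclib was 0.33 and passed (adjusted p = 0.0389). Without that library they were 0.50 (adjusted p = 0.0035) and 0.42 (adjusted p = 0.0176).

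PMAIP1 was called with neither inhibitor. In CAMA-1 it had 3 to 14 counts a library, and differences of -0.10 (95% interval -1.11 to 0.90) and 0.27 (-0.67 to 1.22). In ZR-75-1 it stood at 24.2, 19.0 and 31.8 CPM with DMSO, 25.2, 21.5 and 24.5 CPM with abemaciclib and 18.2, 15.6 and 21.8 CPM with palbociclib, in overlapping groups. The ZR-75-1 differences were -0.076 (-0.47 to 0.31) and -0.42 (-0.82 to -0.028, adjusted p = 0.106), the second of which passed without DMSO library 2 (-0.59, adjusted p = 0.0304).

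**Figure D2:**
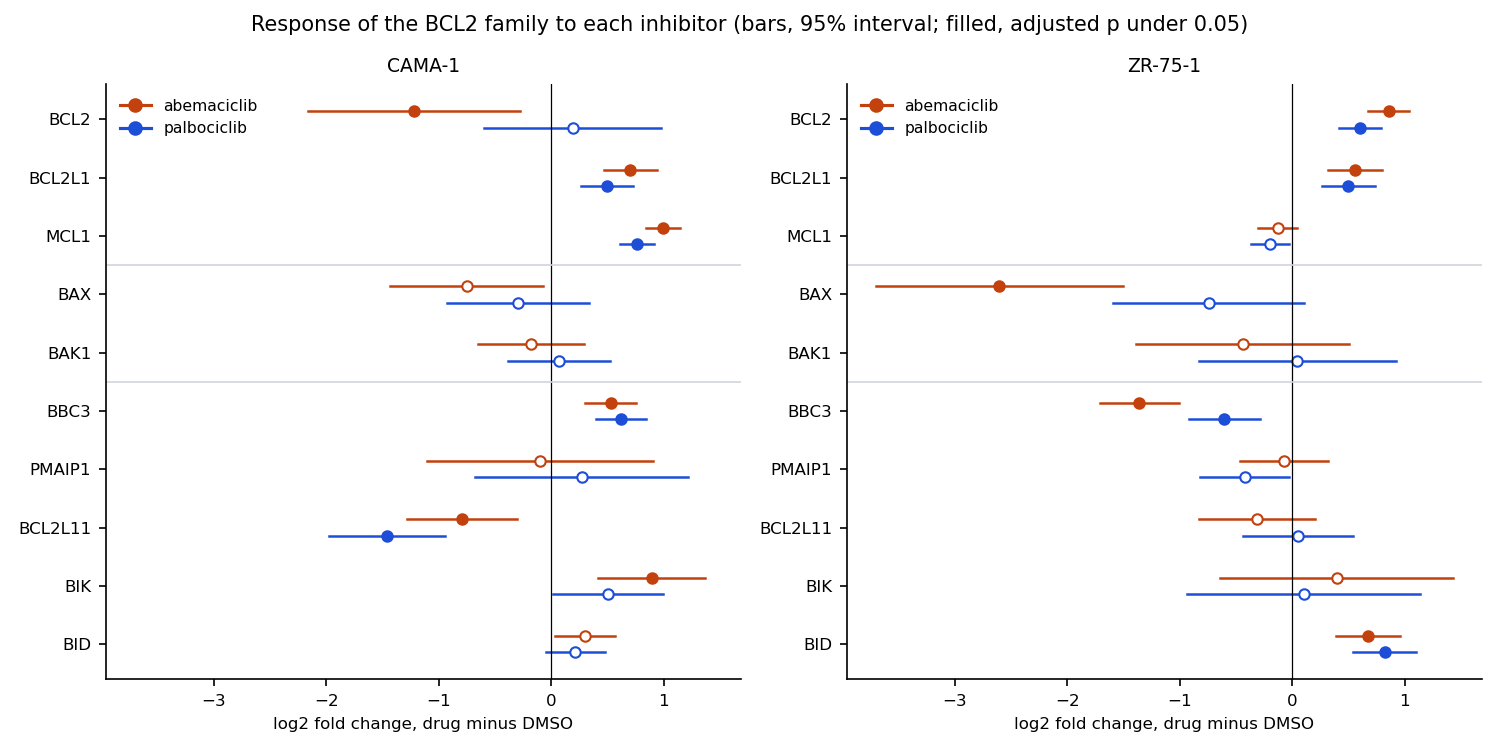
Log2 fold change of each member with abemaciclib and palbociclib against DMSO (horizontal axes), in CAMA-1 and in ZR-75-1, with 95% intervals as bars and filled points where the adjusted p was under 0.05. BCL2L1 lay above 0 in all 4 comparisons, whereas BBC3 lay above 0 in CAMA-1 and below 0 in ZR-75-1.

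A change called in 1 line and not in the other does not show that the lines differ, so the difference in response was tested directly over all 18 libraries. With abemaciclib, 4 members differed between lines, beside 18.2% of all genes tested. With palbociclib, 4 members differed, beside 20.3% of all genes. MCL1 and BBC3 differed with both inhibitors. Among the anti-apoptotic genes, MCL1 gave a difference, ZR-75-1 minus CAMA-1, of -1.15 ± 0.11 (adjusted p = 1.21e-12) with abemaciclib and -0.99 ± 0.11 (adjusted p = 1.62e-10) with palbociclib. For BCL2 the difference was 2.04 ± 0.37 (adjusted p = 2.03e-05) with abemaciclib, toward ZR-75-1, and 0.36 ± 0.30 (95% interval -0.24 to 0.95) with palbociclib. The CAMA-1 part of the abemaciclib value rested on 4 to 8 counts a library with the drug, and DESeq2 did not call it. In the CAMA-1 fit that part had an SE of 0.47, above the 0.37 here, where 1 estimate of spread serves both lines. The line difference ranged from 1.81 to 2.43 with 1 library left out. BCL2L1 gave -0.17 (95% interval -0.51 to 0.18) and -0.025 (-0.37 to 0.32), so a difference larger than about 0.51 in either direction lay outside both intervals.

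For BBC3 the difference was -1.91 ± 0.20 (adjusted p = 3.31e-11) with abemaciclib and -1.25 ± 0.19 (adjusted p = 4.32e-07) with palbociclib. BCL2L11 differed with palbociclib, at 1.48 ± 0.36 (adjusted p = 0.0014), and with abemaciclib gave 0.45 ± 0.36 (adjusted p = 0.430). BID differed with palbociclib, at 0.58 ± 0.19 (adjusted p = 0.0235), a call that was lost without CAMA-1 DMSO library 3 (0.40, adjusted p = 0.164), CAMA-1 palbociclib library 1 (0.53, 0.0595) or ZR-75-1 DMSO library 3 (0.47, 0.0976). The difference for BAX with abemaciclib, -1.88 ± 0.65 (adjusted p = 0.0326), was the least secure. It was not called without the filter on low counts (adjusted p = 0.0525), nor after leaving out any of the 3 CAMA-1 DMSO libraries (-1.80, -1.83 and -1.85), CAMA-1 abemaciclib library 3 (-1.52), ZR-75-1 DMSO library 1 (-1.83) or 2 (-1.64), or ZR-75-1 abemaciclib library 1 (-1.56) or 3 (-1.95). BAK1, PMAIP1 and BIK were not called with either inhibitor, and their intervals were wide, reaching from -1.58 to 0.54 for BIK with abemaciclib.

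**Figure D3:**
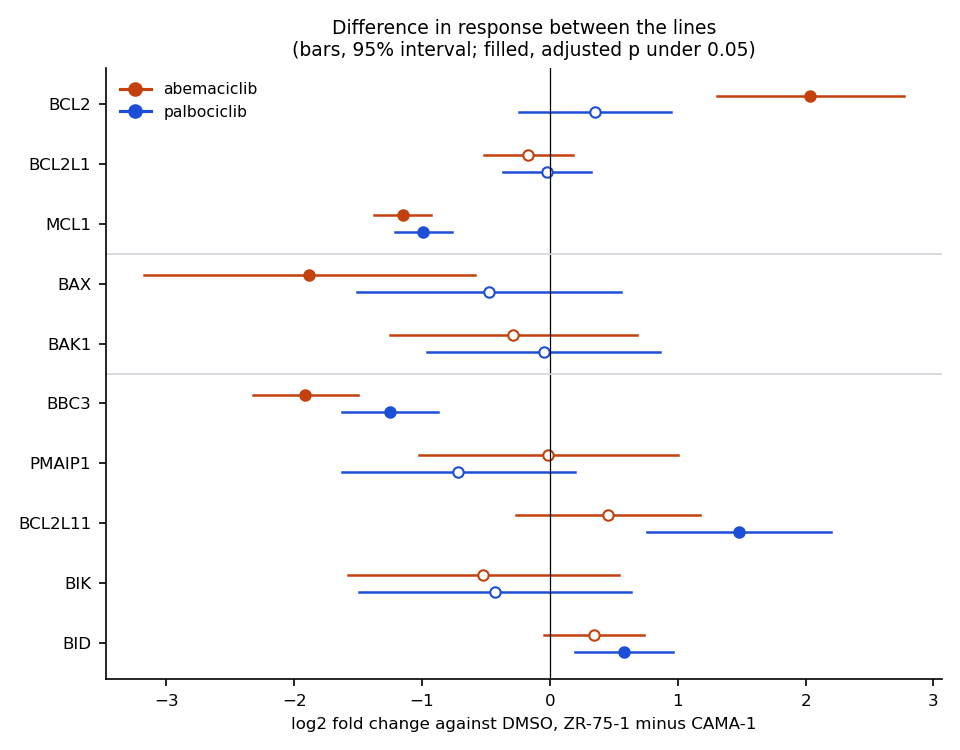
Difference between the lines in the log2 fold change of each member against DMSO (ZR-75-1 minus CAMA-1, horizontal axis), for abemaciclib and palbociclib, with 95% intervals as bars and filled points where the adjusted p was under 0.05. MCL1 and BBC3 lay below 0 with both inhibitors, and BCL2 lay above 0 with abemaciclib.

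Abemaciclib and palbociclib were compared with each other at the same dose and time. No member was called in CAMA-1, where 2.33% of all genes tested were, and 3 members were called in ZR-75-1, beside 13.2% of all genes. The share in CAMA-1 ranged from 1.35% to 3.41% with 1 library left out, and was 1.37% without abemaciclib library 3 and 1.35% without palbociclib library 1. BBC3 was lower with abemaciclib than with palbociclib in ZR-75-1 (-0.76, SE 0.18, adjusted p = 0.0023), and the groups did not overlap. This call held without any single library. BAX was lower too (-1.86, SE 0.58, adjusted p = 0.0231) and BCL2 was higher (0.25, SE 0.09, adjusted p = 0.0418), both in non-overlapping groups, yet DESeq2 called neither (adjusted p = 0.0802 and 0.0827). The BCL2 call was also lost in the joint fit of both lines (0.26, adjusted p = 0.0894) and without the filter on low counts (0.26, adjusted p = 0.0848). BAX lost its call without ZR-75-1 abemaciclib library 1 (-1.60, adjusted p = 0.122) or 3 (-1.92, 0.0639) or palbociclib library 1 (-1.44, 0.183). BCL2 lost its own without abemaciclib library 1 (0.24, adjusted p = 0.136), 2 (0.27, 0.0779) or 3 (0.27, 0.0843), or palbociclib library 2 (0.29, 0.0519) or 3 (0.21, 0.171). The number called in ZR-75-1 was then as low as 1, without abemaciclib library 1 or 3.

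In CAMA-1 none of the members passed the adjusted threshold in edgeR, and DESeq2 also called 0 members. The members with the lowest p were MCL1, BCL2 and BCL2L11, which ranked 356, 390 and 886 among the 11053 genes tested. For BCL2, abemaciclib minus palbociclib was -1.41 ± 0.45 (adjusted p = 0.0978), and when the line was fitted together with ZR-75-1 the value was -1.42 and called (adjusted p = 0.0083). MCL1 gave 0.23 ± 0.07 (adjusted p = 0.0865) and was called without DMSO library 3 of that line (0.23, adjusted p = 0.0262). For BCL2L11 the difference was 0.66 ± 0.28 (adjusted p = 0.271). The intervals for BCL2L1 were -0.020 to 0.43 in CAMA-1 and -0.17 to 0.29 in ZR-75-1, which leaves out any difference above 0.43 on the log2 scale.

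**Figure D4:**
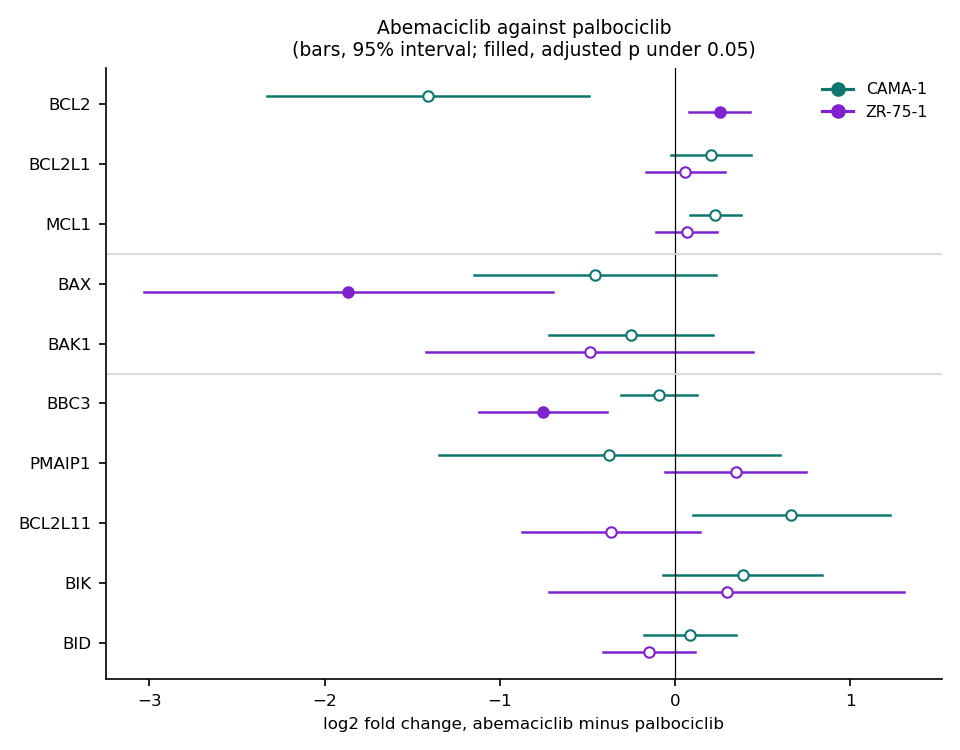
Log2 fold change of each member with abemaciclib minus palbociclib (horizontal axis) in CAMA-1 and in ZR-75-1, with 95% intervals as bars and filled points where the adjusted p was under 0.05. Only BCL2, BAX and BBC3 in ZR-75-1 have filled points, and the wide bars belong to members with few counts.

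Taken across the 6 groups, each member had its own order of levels. BCL2 ran from ZR-75-1 with abemaciclib through palbociclib to DMSO and then, after a gap, the CAMA-1 groups, whose neighbours overlapped. MCL1 was highest in CAMA-1 with abemaciclib, then CAMA-1 with palbociclib, and the remaining groups followed, of which the DMSO groups of the lines overlapped. BBC3 had its 2 highest groups, which overlapped, in treated CAMA-1 and its 2 lowest, which did not, in treated ZR-75-1. For BCL2L1 the 4 treated groups overlapped and stood above the 2 DMSO groups, which overlapped each other. For BCL2L11, 5 groups overlapped with their neighbours and CAMA-1 with palbociclib stood below them all.

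Genes with a pattern most like that of a member were sought for the 3 members called in at least 3 of the 4 comparisons with DMSO. Pearson's r was taken over the 18 libraries on log2 CPM after the mean of each line was removed, among 9706 genes, and these libraries share lines, treatments and DMSO controls. BBC3 was followed most closely by TPM4 (r = 0.95), FBXO32 (0.919) and ACTB (0.919). BCL2L1 was followed by CES2 (0.919), KIAA0319L (0.916) and KIF12 (0.911). The values for BCL2 were lower, with HSD11B2 (0.804), CFAP36 (0.764) and ADAM15 (0.752).

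Genes around the family were counted in the same tests, so their counts stand beside the 40.3%, 37.1%, 36.2% and 27.9% of all genes called in the 4 comparisons with DMSO, and no difference between a list and other genes was tested. Of 13 other BCL2 family genes, 7 were tested in each line, and 0 rose and 1 fell in CAMA-1 with each inhibitor, while 2 rose and 0 fell in ZR-75-1 with each. Their median change was 0.13 and 0.096 for CAMA-1, against 0.37 and 0.36 for ZR-75-1. Among 12 apoptosome and executioner genes, which act once cytochrome c is released, 11 were tested. With abemaciclib and palbociclib in turn, 3 and 2 rose and 1 and 1 fell in CAMA-1, and 2 and 2 rose and 1 and 0 fell in ZR-75-1. CASP9, the initiator caspase of the apoptosome, had 2 counts in each CAMA-1 DMSO library, 6 to 14 counts with abemaciclib and 8 to 17 with palbociclib. It was called higher with both (adjusted p = 0.0016 and 0.0032). Its DMSO counts lay below the floor of 3 counts, and it passed the filter on low counts through the treated libraries. These calls are therefore not read as a rise from a measured level, although the counts of rises given for CAMA-1 include them. The median of this list was -0.0026 and 0.019 for CAMA-1, against -0.023 and -0.053 for ZR-75-1. APAF1, the scaffold of the apoptosome, fell in ZR-75-1 with abemaciclib (-1.02, SE 0.25, adjusted p = 9.57e-04).

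Of 5 inhibitor of apoptosis genes, 4 were tested, and BIRC5 was the 1 that fell in each comparison. BIRC5 encodes survivin, which also serves in cell division. With abemaciclib it changed by -2.75 ± 0.13 in CAMA-1 (adjusted p = 2.99e-21) and by -2.99 ± 0.14 in ZR-75-1 (adjusted p = 6.76e-25). With palbociclib it changed by -2.18 ± 0.12 in CAMA-1 (adjusted p = 6.98e-19) and by -0.87 ± 0.11 in ZR-75-1 (adjusted p = 9.23e-09). Of the other 3, 1 or 2 rose in each comparison, and the list's median lay between 0.095 and 0.25. In the death receptor pathway, 7 of 9 genes were tested: 3 rose and 0 fell in CAMA-1 with each inhibitor, whereas in ZR-75-1 abemaciclib raised 1 and lowered 3 and palbociclib raised 2 and lowered 1. Its median was 0.39 and 0.31 for CAMA-1, against -0.19 and -0.050 for ZR-75-1. All 3 outer membrane channel genes were tested, and 1 fell in each of the 4 comparisons, with 1 rise with abemaciclib in each line and medians from -0.13 to 0.065. Of 6 genes whose products degrade, stabilise or tether family proteins, 2 rose and 1 fell in CAMA-1 with each inhibitor. In ZR-75-1, 1 rose and 0 fell with each, and the medians of the 4 comparisons ran from 0.080 to 0.15.

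Transcription factors known to act on BCL2 family genes made a list of 9, of which 8 were tested in CAMA-1 and 9 in ZR-75-1. In CAMA-1, 3 rose and 2 fell with each inhibitor, and in ZR-75-1, 1 rose with each while 4 fell with abemaciclib and 3 with palbociclib. The list's median was 0.15 and 0.22 for CAMA-1, against -1.03 and -0.19 for ZR-75-1. DDIT3 and ATF4, of the integrated stress response, which is known to act on BBC3 and PMAIP1, fell in ZR-75-1. In ZR-75-1, DDIT3 changed by -1.79 ± 0.30 (adjusted p = 2.05e-06) and -2.08 ± 0.30 (adjusted p = 1.73e-07), and ATF4 by -1.68 ± 0.09 (adjusted p = 2.94e-22) and -1.47 ± 0.09 (adjusted p = 5.91e-20). In CAMA-1, DDIT3 had 5 to 17 counts a library and values of -0.71 ± 0.48 and -1.004 ± 0.48 that were not called (adjusted p = 0.249 and 0.102), and its difference between lines was not called with either inhibitor (adjusted p = 0.192 and 0.202). ATF4 fell in CAMA-1 too, by less (-0.72, SE 0.09 and -0.61, SE 0.09, adjusted p = 9.74e-09 and 3.71e-07), and the difference between lines was called with both inhibitors (-0.98 and -0.89). FOXO1, a forkhead factor, rose in CAMA-1 by 1.51 ± 0.40 (adjusted p = 0.0019) and 1.68 ± 0.38 (adjusted p = 4.85e-04). Its counts a library there were 6 to 12 with DMSO, 15 to 34 with abemaciclib and 20 to 42 with palbociclib. FOXO1 passed the filter on low counts in CAMA-1 through the treated libraries, so the size of the rise is uncertain. ZR-75-1 had 5 to 15 counts with DMSO, 2 to 5 with abemaciclib and 10 to 16 with palbociclib. E2F1 fell in CAMA-1 with both inhibitors (-1.62, SE 0.15 and -0.92, SE 0.14, adjusted p = 4.97e-12 and 4.63e-07) and in ZR-75-1 with abemaciclib (-1.03, SE 0.15, adjusted p = 4.80e-08). The part of any of these factors in the changes of the BCL2 family was not tested.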

How the data were processed

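The authors deposited a table of read counts per gene for 18 QuantSeq 3′ libraries. By the study's methods, BBDuk removed adapters, and reads were mapped to hg38 with STAR (2.7.5b in the submitters' processing notes) and counted with featureCounts (2.0.1) on GENCODE release 35. Strand, multiple alignments and molecular identifiers were not given in the sources used here, and the labels and the methods name different strand versions of the kit. Coordinates and overlaps are from GENCODE release 44 on GRCh38. Promoter windows are from RefSeq (GRCh38.p14).

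Of 60656 rows, 35543 had no count and 60401 received a symbol. Rows without one held 0.0704% of counts and stayed in, since they name a gene by identifier. Each line was fitted on its 9 libraries in edgeR 4.0.16 (R 4.3.3) with filterByExpr, TMM and the quasi-likelihood F test. The difference between lines and the comparison of DMSO groups came from a fit over all 18 libraries and 6 groups. SEs and 95% intervals follow from the F statistic. The biological coefficient of variation was 8.12% in CAMA-1 and 8.30% in ZR-75-1. CPM are relative to TMM-scaled totals over all 18 libraries, so ratios of group means can differ slightly from fitted folds. The floor of 3 counts covers counting error only. The study used DESeq2, run here as an alternative.

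Alternatives were RLE and upper-quartile scaling, no filter, DESeq2 1.42.0, a replicate block, a joint fit, mitochondrial genes left out, a 2-fold minimum and each library left out. The code was tested on simulated data. Replicate numbers were checked for pairing: deviations of same-numbered libraries from their group means had correlations of -0.064 to 0.013, so no block was used. Replicates of a group differed by more than sampling noise (chi-square per degree of freedom 1.83 to 5.18).

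All 10 members are named. Genes of the other lists are named where called with a log2 change of at least 1 against DMSO, at most 4 a list, largest first. The members and lists were chosen with earlier results of these data known.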

Additional observations from a re-analysis of the deposited data

Results flagged for a closer look

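The responses of 6 members differed between the lines by the interaction test in edgeR (ZR-75-1 minus CAMA-1, log2 fold change against DMSO). With abemaciclib these were BCL2 at 2.04 (adjusted p = 2.03e-05), MCL1 at -1.15 (1.21e-12), BAX at -1.88 (0.0326) and BBC3 at -1.91 (3.31e-11). With palbociclib these were MCL1 at -0.99 (adjusted p = 1.62e-10), BBC3 at -1.25 (4.32e-07), BCL2L11 at 1.48 (0.0014) and BID at 0.58 (0.0235). Over all genes tested, 18.2% differed with abemaciclib and 20.3% with palbociclib, and nothing particular to the family is drawn from these counts. For BCL2 and BBC3 with abemaciclib, and for BBC3 with palbociclib, the changes within the lines were called in opposite directions, although the fall of BCL2 in CAMA-1 rested on 20 counts over 3 abemaciclib libraries. The BAX value lost its call in 8 of 18 fits that left out 1 library and without the filter on low counts, and the BID value lost its call in 3 of 18. The mitochondrial share of counts, which rose in treated CAMA-1 and not in ZR-75-1, moved with line and treatment. With mitochondrially encoded genes left out, 4 members were still called with each inhibitor. Its further part in these differences was not tested.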

How the results depend on the processing

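Over RLE and upper-quartile scaling, no filter, DESeq2, the replicate block, the joint fit and the removal of mitochondrial genes, 581 member fold changes kept their direction and side of the threshold, 8 lost and 3 gained a call, and 6 changed sign. With 1 library left out at a time, 1006 kept both, 24 lost and 9 gained a call, and 41 changed sign. The sign changes belonged to values near 0: for PMAIP1 with abemaciclib, the difference between lines was -0.014 and became 0.0076 with RLE, 0.0049 with upper-quartile scaling, 0.012 with DESeq2, 0.027 with the replicate block and 0.034 without mitochondrial genes, and for BCL2L1 with palbociclib it was -0.025 and became 0.020 without mitochondrial genes. With a 2-fold minimum, CAMA-1 had 1 call with each inhibitor (BCL2 with abemaciclib, the call that DESeq2 and 4 of 9 fits without a library lost, and BCL2L11 with palbociclib) and ZR-75-1 had 2 with abemaciclib (BAX and BBC3) and 0 with palbociclib, beside 1 for abemaciclib against palbociclib in ZR-75-1 and 2 for the line difference with palbociclib. Abemaciclib against palbociclib gave 1 member in CAMA-1 with the joint fit, and 1 member and 7.94% of all genes in ZR-75-1 with DESeq2. The cause was not tested.

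Leaving out 1 library gave 5 to 7 and 4 to 5 members called in CAMA-1, 5 in all fits and 4 to 5 in ZR-75-1, 0 to 1 and 1 to 3 for abemaciclib against palbociclib, 3 to 4 for both line differences and 6 to 8 for the DMSO groups. Against DMSO, ranges that crossed 0 were PMAIP1 with abemaciclib (-0.39 to 0.14 in CAMA-1, -0.24 to 0.13 in ZR-75-1), and with palbociclib BAK1 (-0.021 to 0.21) and BCL2 (-0.13 to 0.43) in CAMA-1, and BAK1 (-0.32 to 0.32), BCL2L11 (-0.15 to 0.28) and BIK (-0.20 to 0.39) in ZR-75-1. So did BCL2L1 for abemaciclib against palbociclib in ZR-75-1 (-0.069 to 0.20), BCL2L11 between DMSO groups (-0.38 to 0.026), and the line differences of PMAIP1 with abemaciclib (-0.19 to 0.29) and of BCL2L1 (-0.18 to 0.15) and BAK1 (-0.37 to 0.23) with palbociclib. Same-numbered libraries did not deviate together. With a replicate block, the DMSO line differences of BBC3 (-0.30, adjusted p = 0.152) and BID (-0.35, adjusted p = 0.0962) lost their calls, and BID with abemaciclib in CAMA-1 gained one (0.32, adjusted p = 0.0429), as it did in the joint fit (0.33, adjusted p = 0.0389). Depth limits what can be detected for BAX, for BAK1 and BIK in ZR-75-1, and for PMAIP1 and BCL2 in CAMA-1.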
